A study of Mus musculus with 6 samples.

Results

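The liver keeps blood glucose steady, and 36 genes that carry its glucose, glycogen and pyruvate traffic were followed in the livers of p75NTR KO and wild-type (WT) mice. They were taken from a list of genes for glucose entry and release, gluconeogenesis, glycolysis, glycogen turnover and pyruvate oxidation, and each was matched to its row by Ensembl gene ID. All 36 were found among the 49671 genes of the count table, and all 36 passed the filter on low counts that left 13773 genes to test. Polyadenylated RNA of bulk liver from mice aged 6 months was sequenced in 6 libraries, WT replicates 1, 2 and 3 and KO replicates 1, 2 and 4. KO mice carry a germline deletion in Ngfr, the gene of the neurotrophin receptor p75NTR, so every cell type of the animal lacks the normal allele. The labels give the strain as B6.1129S4-Ngfr/J for both genotypes, and the mice received a standard diet in a light-controlled room. A fast of 4 h is given for the drawing of blood, and for the livers that were sequenced neither a fast nor the hour of collection is stated. WT and KO mice came from breeding of this line in the laboratory, with no statement of which were littermates. The labels do not name each library's animal, so the p-values measure the spread between these samples.

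In the fed state insulin turns on glycolysis and glycogen synthesis, and glucose carbon flows toward pyruvate and fat. In fasting, glucagon, glucocorticoids and the transcription factor FOXO1 raise Pck1 and G6pc, and the liver releases glucose made from lactate, glycerol and amino acids. Gluconeogenesis and glycogen breakdown both lead to glucose 6-phosphate, which the transporter encoded by Slc37a4 carries into the endoplasmic reticulum, where the G6pc product removes the phosphate so that glucose can leave the cell. The pyruvate dehydrogenase kinases close the route from pyruvate to acetyl-CoA when fat is being burned.

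Total counts per library were 27107209 to 32664149. Levels are given as CPM, a gene's counts per 1000000 counts of its library after TMM normalization, in the order of replicates 1, 2 and 3 in WT and 1, 2 and 4 in KO. Ngfr was at 4.32, 4.63 and 2.83 CPM in WT and 1.68, 0.835 and 1.61 CPM in KO, lower in each KO library than in each WT library, and its remaining reads can come from exons outside the deletion. KO replicate 4 stood apart: it held 4712 counts of Y-linked genes against 0 to 2 in the other libraries, and 16 Xist counts against 6599 to 9554. The first principal component, with 39.3% of the variance, put it at 64.6 and the others between -18.4 and -9.28. No label states sex. This library thus differed from the other 5 in sex-linked expression within the KO group, and the results for the members are given with and without it. Of the hepatocyte markers looked for, all 7 that the table held under the listed symbol were measured, with summed levels of 110390, 124339 and 107808 CPM in WT and 106065, 119450 and 100872 CPM in KO. The muscle markers, which include the muscle forms of 2 glycolytic enzymes, summed to at most 4.78 CPM in any library. In bulk tissue, fewer cells of a type and less RNA per cell cannot be told apart.

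By edgeR's quasi-likelihood test on all 6 libraries, 0 of the 36 genes passed an adjusted p of 0.05, and the background was the same, with 0% of all genes called. Slc37a4 and Foxo1 stood first among the 36. Each KO library exceeded each WT library in both genes. DESeq2, the study's own test, called both (1.22% of all genes tested), and so did edgeR once KO replicate 4 was left out (0.808% of all genes). Tpi1 was added to these calls when DESeq2 was run without KO replicate 4 (3.08% of all genes). At an unadjusted p under 0.05, 5 members were higher in KO and 0 were lower, against 7.17% of all genes, 3.7% higher and 3.48% lower. The 5 were Slc37a4, Foxo1, Pfkfb3, Tpi1 and Pfkfb2. With KO replicate 4 left out there were 8, of which 7 were higher (Slc37a4, Foxo1, Tpi1, Ppargc1a, Pck1, Pfkfb3 and Pfkfb2) and Gys2 was lower, against 12.1% of all genes, 5.64% higher and 6.5% lower.

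**Figure D1:**
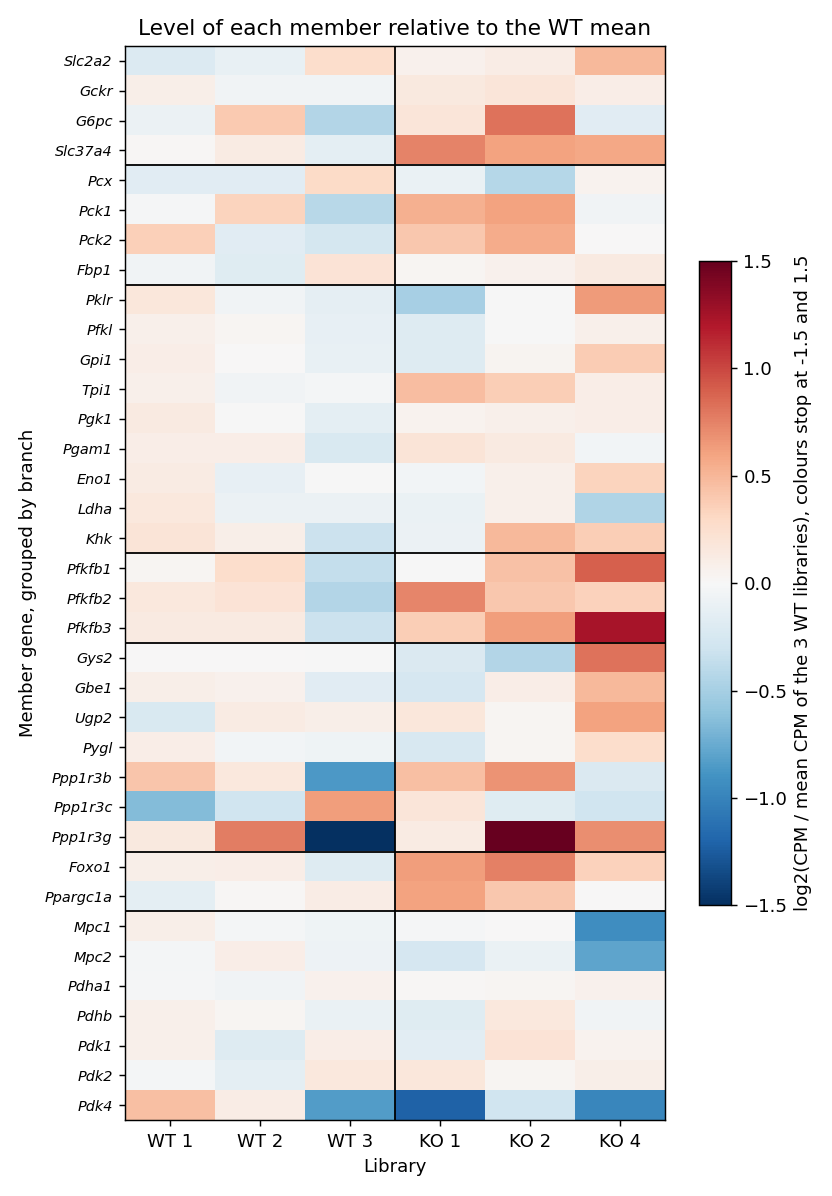
Each row is 1 of the 36 genes and each column a library, coloured by log2 of the gene's CPM over its mean CPM in the 3 WT libraries, with lines between the branches. Slc37a4 and Foxo1 are red in all 3 KO columns, WT 3 is the lowest library for 14 genes, and the KO 4 column has Gys2 at its highest and Mpc1 and Mpc2 at their lowest.

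The promoters of Slc37a4 and Foxo1, the genes with the smallest p-values, and of the classic fasting genes Pck1 and G6pc are shown first, because cAMP, the messenger of glucagon, acts through CREB at the palindrome TGACGTCA or its core TGACG. The sequences are RefSeq promoters of GRCm38.p6, the 250 bases before an annotated transcript start, read 5′ to 3′ along the gene, with any TGACG or its reverse complement CGTCA in capitals. Slc37a4 is drawn for the first of its RefSeq starts. The GENCODE gene begins inside each of these windows, for Foxo1 at the last base. In Slc37a4 it begins before the marked core, which by that annotation lies within the gene.
Slc37a4 (chr9:44396696-44396945, plus strand): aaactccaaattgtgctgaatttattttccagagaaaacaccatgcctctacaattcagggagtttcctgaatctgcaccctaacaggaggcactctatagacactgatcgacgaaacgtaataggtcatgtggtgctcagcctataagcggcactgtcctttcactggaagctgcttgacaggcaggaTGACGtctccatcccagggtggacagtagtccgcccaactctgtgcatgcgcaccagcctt
Foxo1 (chr3:52268087-52268336, plus strand): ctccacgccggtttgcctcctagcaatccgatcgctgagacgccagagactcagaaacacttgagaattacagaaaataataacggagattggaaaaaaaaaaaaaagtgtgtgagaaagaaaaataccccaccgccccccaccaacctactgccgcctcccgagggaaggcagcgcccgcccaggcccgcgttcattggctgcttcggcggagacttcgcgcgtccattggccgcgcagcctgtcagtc
Pck1 (chr2:173152823-173153072, plus strand): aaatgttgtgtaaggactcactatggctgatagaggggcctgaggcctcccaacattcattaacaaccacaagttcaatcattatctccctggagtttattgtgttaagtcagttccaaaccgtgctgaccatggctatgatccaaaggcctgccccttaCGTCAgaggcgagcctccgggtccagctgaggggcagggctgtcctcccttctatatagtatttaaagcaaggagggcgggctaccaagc
G6pc (chr11:101367466-101367715, plus strand): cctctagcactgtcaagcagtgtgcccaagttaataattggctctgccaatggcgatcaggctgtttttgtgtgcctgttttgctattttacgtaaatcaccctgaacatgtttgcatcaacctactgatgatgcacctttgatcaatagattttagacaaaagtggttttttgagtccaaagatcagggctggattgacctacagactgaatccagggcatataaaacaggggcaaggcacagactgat
The Pck1 window holds the element through which cAMP is known to act on this gene, and the Slc37a4 window holds 1 core on the plus strand. In the Foxo1 and G6pc windows there was no match to these exact letters, and variant forms of the element were not searched. RefSeq gave 51 windows for 34 of the 36 genes, and every motif was searched on both strands. TGACG, which is also part of the palindrome, occurred in 13 of the 51 windows, of 10 genes, and in 17.8% of all 32851 promoters. The whole palindrome TGACGTCA was in 1 window, of Ldha (1.55% of all promoters), and the FOXO-type motif TGTTTAC in 0 of the 51 (3.17%). CACGTG, the core bound by many basic helix-loop-helix factors, was in 7 of the 51 windows (6.02%). These matches are exact letters in a window, so a gene without a match may still hold a variant site. Occupancy was not measured.

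Glucose entry and release holds 4 genes, and all 4 had a log2 fold change above 0 (median 0.28, against -0.0012 over all genes tested). Slc37a4, on chromosome 9 from 44396852 to 44402968 on the plus strand, read 182, 195 and 162 CPM in WT and 301, 273 and 268 CPM in KO. Its lowest KO library was above its highest WT library, so the groups did not overlap, and the means were 179 ± 16.5 CPM in WT and 281 ± 17.7 CPM in KO (SD, n = 3 each). KO was thus at 1.56 times the WT level, with a log2 fold change of 0.65 (standard error 0.12, 95% interval 0.37 to 0.92). The adjusted p was 0.187 by edgeR and 7.4e-04 by DESeq2. Leaving out KO replicate 4 gave a log2 fold change of 0.68, with an edgeR adjusted p of 0.0479 and a DESeq2 adjusted p of 7.5e-05. KO replicate 1 was the highest of the 6 libraries and WT replicate 3 the lowest.

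G6pc, the catalytic subunit of glucose-6-phosphatase and the partner of Slc37a4 in glucose release, lies on chromosome 11 from 101367561 to 101377903 on the plus strand. It read 279.7, 391 and 219 CPM in WT and 335, 523 and 264 CPM in KO, and the groups overlapped. Its log2 fold change of 0.34 had a 95% interval of -0.31 to 0.98, and without KO replicate 4 it was 0.54 (-0.03 to 1.11). It was 0.015 without KO replicate 2 and 0.16 without WT replicate 3, so that single libraries carried the difference. In each genotype, replicate 2 was the highest. Of the members, G6pc, Pdk2 and Ugp2 lie on the chromosome of Ngfr, at 5.78 Mb, 0.527 Mb and 74.2 Mb from it, and linkage to the deleted allele was not tested. Gckr, a regulatory protein of hepatic glucose use, was at 175, 159 and 158 CPM in WT and 182, 186 and 176 CPM in KO. The ranges lay narrowly apart, and the log2 fold change was 0.15 (-0.09 to 0.38), which includes 0. Slc2a2, the glucose transporter of the hepatocyte membrane, had 0.23 with all libraries and 0.09 without KO replicate 4, which was its highest library.

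**Figure D2:**
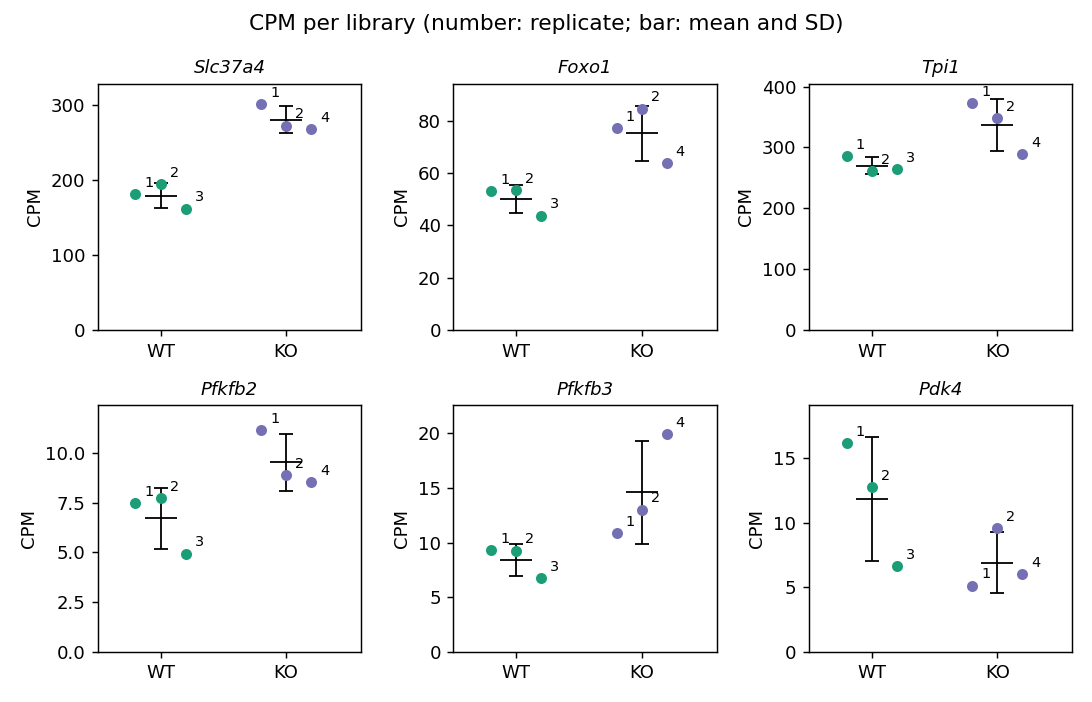
Each panel shows the CPM of 1 gene in the 3 WT and 3 KO libraries, numbered by replicate, with bars for the mean and SD and axes that start at 0. Slc37a4, Foxo1, Tpi1, Pfkfb2 and Pfkfb3 have every KO point above every WT point, while the Pdk4 groups overlap, with WT 3 low.

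Gluconeogenesis from pyruvate runs through Pcx, Pck1, Pck2 and Fbp1. None of the 4 passed edgeR's or DESeq2's threshold on all libraries, and the median log2 fold change was 0.21 with a range of -0.15 to 0.39. Pck1, the cytosolic enzyme that makes phosphoenolpyruvate and the gene of highest level per kilobase of exon among the 36 (809 CPM per kb in WT and 1058 in KO), lies on chromosome 2 from 173153048 to 173159273 on the plus strand. It read 2743, 3490 and 2086 CPM in WT and 4005, 4214 and 2668 CPM in KO. KO replicates 1 and 2 were above all 3 WT libraries, and KO replicate 4 lay inside the WT range. In log2 terms KO stood at 0.39 (95% interval -0.13 to 0.90, edgeR adjusted p = 0.823). It was 0.57 without KO replicate 4 (standard error 0.19), where edgeR gave an unadjusted p of 0.0144 and an adjusted p of 0.262. Leaving out WT replicate 3 or KO replicate 2 instead gave 0.22 and 0.27. Pck2, its mitochondrial counterpart, was present at a small part of that level, 0.883 CPM per kb in WT, with a log2 fold change of 0.34 (-0.17 to 0.86). Fbp1, which removes a phosphate from fructose bisphosphate, was at 0.08 (-0.21 to 0.37). Pcx, the carboxylase that turns pyruvate into oxaloacetate, was the 1 gene of this branch below 0, at -0.15 (-0.54 to 0.25).

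Glycolysis and fructose entry holds 9 genes, of which 7 were above 0 and 2 below, with a median of 0.10. Tpi1, the isomerase that interconverts the triose phosphates, lies on chromosome 6 from 124810586 to 124814296 on the minus strand and was the 1 gene of the branch with groups that did not overlap. It read 286, 261 and 264 CPM in WT and 373, 349 and 289 CPM in KO. All 3 KO libraries were above WT, KO replicate 4 only just. Its log2 fold change, KO over WT, was 0.32 (standard error 0.13, edgeR unadjusted p = 0.0369, adjusted p = 0.681), and without KO replicate 4 it was 0.42 (edgeR adjusted p = 0.137, DESeq2 adjusted p = 0.0216). Exons of Tpi1 overlap those of Spsb2 on the other strand. Spsb2 itself read 15.7, 16.1 and 14.7 CPM in WT and 14.3, 15.5 and 17.2 CPM in KO, with a log2 fold change of 0.02. Tpi1, Pgk1, Pgam1, Eno1 and Ldha also have processed copies in the mouse genome that may share their reads.

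Pklr, the pyruvate kinase of liver and a target of ChREBP that feeding induces, read 288, 248 and 234 CPM in WT and 181, 255 and 399 CPM in KO. KO replicate 1 was the lowest and KO replicate 4 the highest of the 6 libraries, so the KO range enclosed that of WT. The log2 fold change was 0.12 (-0.47 to 0.70) with all libraries and -0.23 (-0.60 to 0.15) without KO replicate 4, on opposite sides of 0. Pklr exons overlap Hcn3 on the other strand. Ldha, which interconverts pyruvate and lactate, had the highest level per kilobase of this branch (329 CPM per kb in WT). It read 1218, 1024 and 1026 CPM in WT and 1016, 1151 and 795 CPM in KO, with KO replicate 4 the lowest, and its log2 fold change moved from -0.14 to -0.0017 without that library. Khk, the kinase that brings fructose into the pathway, was second in level at 247 CPM per kb, with 0.28 (-0.15 to 0.71). Pfkl, Gpi1, Pgk1, Pgam1 and Eno1 lay between -0.04 and 0.13, each with an interval that included 0.

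The PFKFB enzymes make and break down fructose 2,6-bisphosphate, the signal that switches the hepatocyte between glycolysis and gluconeogenesis. All 3 genes were above 0, with a median log2 fold change of 0.50. Pfkfb3, the form whose kinase activity far exceeds its phosphatase activity, lies on chromosome 2 from 11471433 to 11554077 on the minus strand. It read 9.29, 9.25 and 6.74 CPM in WT and 10.9, 13.0 and 19.9 CPM in KO. Every KO library was above every WT library, and KO replicate 4 was the highest. This gave a log2 fold change of 0.79 (standard error 0.24, edgeR unadjusted p = 0.0109, adjusted p = 0.518), and without KO replicate 4 it was 0.51 (adjusted p = 0.341). Pfkfb2 read 7.47, 7.71 and 4.93 CPM in WT and 11.1, 8.87 and 8.54 CPM in KO, also without overlap, with KO replicate 4 the lowest of the 3 KO libraries. Its log2 fold change was 0.50 (edgeR unadjusted p = 0.0447, adjusted p = 0.690) and 0.58 without KO replicate 4. Its exons overlap Yod1 on the other strand, which read 20.5, 26.1 and 14.2 CPM in WT and 28.0, 32.7 and 20.6 CPM in KO. Exons of Pfkfb2 also overlap those of Gm29427 on the same strand. The part of Yod1 or Gm29427 reads in the Pfkfb2 value was not tested.

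Pfkfb1 is the form that protein kinase A switches in liver and had the highest level of the 3 (4.22 CPM per kb in WT). It read 17.3, 20.3 and 13.2 CPM in WT and 16.9, 22.9 and 31.5 CPM in KO. The groups overlapped, and KO replicate 4 was the highest library. The log2 fold change was 0.49 (-0.06 to 1.03), and 0.24 (-0.23 to 0.70) without KO replicate 4, 0.34 without WT replicate 3 and 0.69 without KO replicate 1. WT replicate 3 was the lowest library for all 3 of these genes.

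Glycogen turnover was covered by 7 genes, of which 6 were above 0 and 1 below (median 0.17), and none had groups that did not overlap. Without KO replicate 4, 4 were above and 3 below, with a median of 0.022. Gys2, the glycogen synthase of liver, read 202, 201 and 200.1 CPM in WT and 173, 149 and 355 CPM in KO. The 3 WT libraries were nearly equal, KO replicates 1 and 2 were below them, and KO replicate 4 was far above. All libraries gave a log2 fold change of 0.17 (-0.50 to 0.83), against -0.32 (-0.57 to -0.07) without KO replicate 4, where edgeR gave an unadjusted p of 0.0190 and an adjusted p of 0.293. Its direction was thus set by 1 library.

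Ugp2, which makes the UDP-glucose that the synthase adds to glycogen, had the highest level of the branch per kilobase (127 CPM per kb in WT). It read 332, 425 and 414 CPM in WT and 439, 398 and 592 CPM in KO, again highest in KO replicate 4, with a log2 fold change of 0.29 (-0.11 to 0.69) and of 0.11 without it. Gbe1, the branching enzyme, and Pygl, the phosphorylase that breaks glycogen down, were at 0.14 and 0.03, and at -0.06 and -0.09 without KO replicate 4. The remaining genes encode subunits that bring protein phosphatase to glycogen. Ppp1r3b had 0.35 (-0.40 to 1.10), Ppp1r3c -0.08 (-0.77 to 0.61) and Ppp1r3g 0.98 (-0.52 to 2.48), the widest intervals of the branch. In WT replicate 3, Ppp1r3b and Ppp1r3g were at their lowest of the 6 libraries and Ppp1r3c at its highest.

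**Figure D3:**
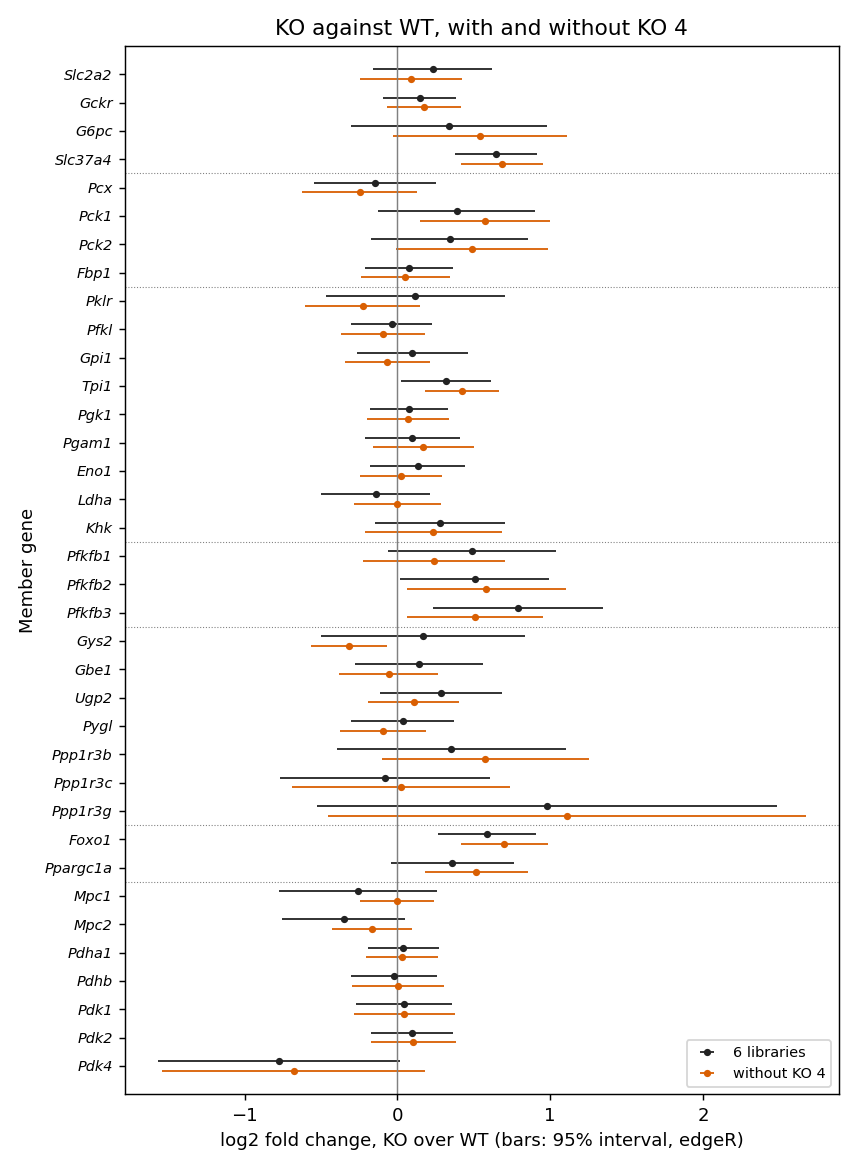
Points are the edgeR log2 fold changes of the 36 genes, KO over WT, with 95% intervals as bars, for all 6 libraries (black) and without KO 4 (orange), in the order of the branches. Slc37a4 and Foxo1 are above 0 in both fits, whereas Gys2 and Pklr change side when KO 4 is left out.

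The regulators of the gluconeogenic programme were Foxo1 and Ppargc1a. Foxo1, the transcription factor that insulin signalling keeps out of the nucleus, lies on chromosome 3 from 52268336 to 52353221 on the plus strand. It read 53.0, 53.5 and 43.7 CPM in WT and 77.3, 84.7 and 63.8 CPM in KO. The groups did not overlap, KO replicate 4 was the lowest KO library, and the means were 50.1 ± 5.51 CPM in WT and 75.3 ± 10.6 CPM in KO (SD, n = 3 each). The log2 fold change was 0.59 (standard error 0.14, 95% interval 0.27 to 0.91), with an adjusted p of 0.282 by edgeR and 0.0332 by DESeq2. It was 0.70 without KO replicate 4, and the adjusted p was then 0.0496 in edgeR and 4.3e-04 in DESeq2. The antisense gene Gm20402, which overlaps Foxo1 exons, had 0 to 2 counts in a library.

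Ppargc1a, the coactivator that works with FOXO1 on Pck1 and G6pc, was lower in level than Foxo1 per kilobase (1.73 against 5.78 CPM per kb in WT). It read 10.3, 11.6 and 12.4 CPM in WT and 17.4, 15.1 and 11.4 CPM in KO. KO replicates 1 and 2 were above the WT range and KO replicate 4 within it. The log2 fold change was 0.36 (-0.04 to 0.76, edgeR adjusted p = 0.762), and 0.51 (0.18 to 0.85, edgeR adjusted p = 0.203) without KO replicate 4.

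Pyruvate entry and oxidation was covered by 7 genes, with a median log2 fold change of -0.02, 3 genes above 0 and 4 below. Pdk4, the pyruvate dehydrogenase kinase that fasting induces, read 16.2, 12.8 and 6.63 CPM in WT and 5.13, 9.61 and 6.00 CPM in KO. WT replicate 3 lay among the KO libraries, and WT replicates 1 and 2 were above them. The log2 fold change was -0.78 (-1.57 to 0.01, edgeR adjusted p = 0.720), the lowest of the 36, and -0.68 (-1.54 to 0.18) without KO replicate 4. It was -0.48 without WT replicate 1 and -1.09 without KO replicate 2. The other kinases, Pdk1 and Pdk2, were at 0.04 (-0.27 to 0.35) and 0.09 (-0.18 to 0.36).

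Pdha1, the catalytic subunit of pyruvate dehydrogenase, read 143, 139 and 151 CPM in WT and 145, 147 and 151 CPM in KO. These values are close, and the log2 fold change of 0.04 had an interval of -0.19 to 0.27. Its partner subunit Pdhb was at -0.02 (-0.30 to 0.26). Mpc1 and Mpc2 together form the carrier that takes pyruvate into mitochondria. Mpc2 read 300.2, 329 and 291 CPM in WT and 257, 286 and 178 CPM in KO, the 1 member of the 36 whose KO libraries were all below WT. Its log2 fold change was -0.35 (-0.76 to 0.05) and -0.17 (-0.43 to 0.09) without KO replicate 4. Mpc1 read 69.4, 63.9 and 62.4 CPM in WT and 64.3, 65.4 and 34.2 CPM in KO, with KO replicate 4 alone far below the rest, and moved from -0.26 to -0.0027 without it.

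Across the 36 genes, 28 had a log2 fold change above 0 and 8 below, against 49.8% of all genes above 0, with a median of 0.14. Without KO replicate 4, 25 were above and 11 below (49.3% of all genes above), and the median was 0.08. In 7 members the groups did not overlap, 6 higher in KO and 1 lower, against 12.4% of all genes and 6.02% higher. Without KO replicate 4 there were 13 such members, 11 higher and 2 lower, against 29.9% of all genes and 14.4% higher. Leaving it out changed the sign in 7 members: Pklr, Gpi1, Gys2, Gbe1, Pygl, Ppp1r3c and Pdhb. KO replicate 4 was the highest or lowest library for 13 of the 36 genes, 36.1% against 42.8% of all genes. WT replicate 3 was so for 18 genes, 14 as the lowest, 50% against 37.0% of all genes.

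The other genes of the same pathways, 44 genes that include aldolases, Gapdh, the kinases and phosphatases of glycogen and the other pyruvate dehydrogenase subunits, were read beside the members. Of the 42 that were tested, edgeR and DESeq2 called 0, the median log2 fold change was 0.03, and 23 were above 0 and 19 below. At an unadjusted p under 0.05 by edgeR there were 2, both higher in KO, against 7.17% of all genes and 3.7% higher. They were Aldoc and Galt, which are named here after their values were seen. In both genes the WT and KO libraries overlapped. Mlxipl, the gene of ChREBP, which turns on Pklr when glucose is plentiful, read 139, 148 and 167 CPM in WT and 97.0, 114 and 187 CPM in KO. KO replicates 1 and 2 were below WT and KO replicate 4 above. On all libraries neither tool called Mlxipl, with a log2 fold change of -0.19 (edgeR adjusted p = 0.940). Without KO replicate 4, DESeq2 called it lower (log2 fold change -0.51, adjusted p = 0.0157), whereas edgeR did not (adjusted p = 0.133).

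The question whether the members follow a difference in feeding state can be set against genes that fasting or feeding is known to move. Members that fasting induces (Pck1, G6pc, Ppargc1a, Foxo1, Pdk4 and Ppp1r3g) had a median log2 fold change of 0.37, with 5 above 0 and Pdk4 below. Those that feeding induces (Pklr, Pfkl, Khk and Ppp1r3b) had 0.20, with 3 above 0 and 1 below. Without KO replicate 4 the medians were 0.56 and 0.07. By library, the median log2 level of the fasting-induced members over the WT mean was 0.05, 0.28 and -0.39 in WT and 0.55, 0.70 and -0.01 in KO. The same value for the feeding-induced members was 0.19, 0.07 and -0.21 in WT and -0.13, 0.25 and 0.23 in KO. WT replicate 3 was the lowest for both sets, and KO replicate 4 had a value near 0 for the fasting set.

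**Figure D4:**
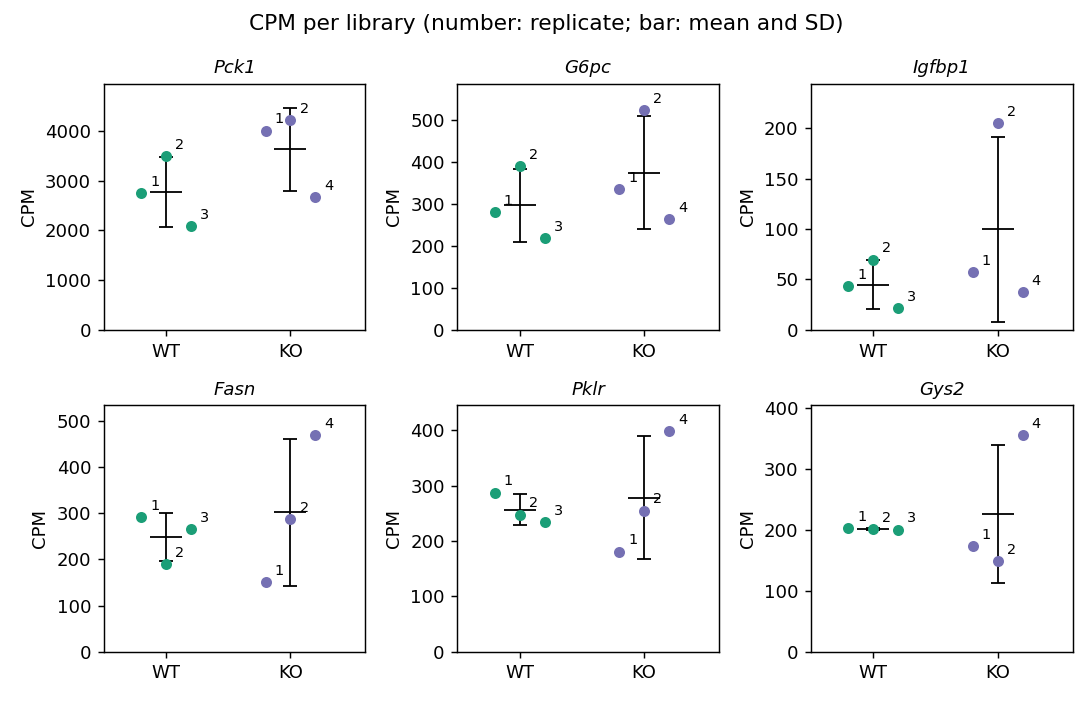
Each panel gives the CPM of 1 gene in the 6 libraries, numbered by replicate, with bars for the mean and SD and axes that start at 0. In the top row are genes that rise in fasting (Pck1, G6pc, Igfbp1). In the bottom row are Fasn and Pklr, which insulin or feeding raises, and Gys2, which is in neither the fasting nor the feeding list. Pck1, G6pc and Igfbp1 are highest in KO 2, whereas Fasn, Pklr and Gys2 are highest in KO 4.

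Outside the members, genes that glucagon, FOXO1 and glucocorticoids raise (Igfbp1, Irs2, Tat, Lpin1, Sds and Tdo2) had a median log2 fold change of 0.96, 5 above 0 and 1 below, and 1.18 without KO replicate 4. Sds, a serine dehydratase that supplies pyruvate from amino acids, read 199, 212 and 229 CPM in WT and 533, 419 and 249 CPM in KO without overlap, and DESeq2 called it (log2 fold change 0.91, adjusted p = 0.00641; edgeR adjusted p = 0.397, and 0.0113 without KO replicate 4). Tat, which starts the breakdown of tyrosine, read 981, 1152 and 569.8 CPM in WT and 2185, 2586 and 698 CPM in KO, with KO replicate 4 inside the WT range. Its log2 fold change was 1.02 (edgeR adjusted p = 0.696), and without KO replicate 4 it was 1.41 and called by edgeR (adjusted p = 0.0496) and DESeq2 (adjusted p = 2.0e-07). Lpin1, a phosphatidate phosphatase that also acts with Ppargc1a, read 162, 225 and 76.5 CPM in WT and 286, 425 and 247 CPM in KO without overlap, with a log2 fold change of 1.05 (edgeR unadjusted p = 0.0193, adjusted p = 0.571). Igfbp1, a FOXO1 target that insulin silences, read 43.2, 69.6 and 21.4 CPM in WT and 57.4, 205 and 37.2 CPM in KO, with KO replicate 2 far above all others and a log2 fold change of 1.16 (-0.29 to 2.60), or 1.56 without KO replicate 4. Fasting genes that PPAR-alpha controls (Angptl4, Cpt1a, Fgf21, Acot1 and Plin2) had a median of -0.43, 1 above 0 and 4 below, and -0.46 without that library. Acot1, a thioesterase of long-chain acyl-CoA, was called lower by DESeq2, at -2.32 (adjusted p = 6.9e-15; edgeR adjusted p = 0.105, and 0.0199 without KO replicate 4). Acot1 and Fgf21 had been seen to be lower in these libraries when the list was written and add no independent support.

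Genes that feeding raises outside the members (Srebf1, Fasn, Acaca, Acly, Elovl6, Scd1, Pnpla3, Thrsp and Me1) differed widely between libraries of 1 genotype. None of the 9 was called by edgeR or DESeq2, and their median was 0.28 with and -0.08 without KO replicate 4. Fasn, the fatty acid synthase, read 291, 190.5 and 266 CPM in WT and 151, 287 and 469 CPM in KO, lowest in KO replicate 1 and highest in KO replicate 4. By library, the median log2 level of the 9 over the WT mean was 0.29, -0.25 and -0.04 in WT and -0.70, 0.19 and 0.76 in KO, lowest in KO replicate 1 and highest in KO replicate 4. Scd1, a fatty acid desaturase, read 8537, 8946 and 1952 CPM in WT and 2975, 10161 and 14358 CPM in KO, lowest in WT replicate 3. The part of feeding state in the members' differences was not tested, since no label gives it.

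Time of day also moves these genes, and 15 clock genes were read beside them. Ciart, a repressor of the clock loop, read 4.32, 6.04 and 4.20 CPM in WT and 7.57, 11.7 and 14.5 CPM in KO without overlap and was called by DESeq2 (log2 fold change 1.22, adjusted p = 0.00166; edgeR adjusted p = 0.243, and 0.146 without KO replicate 4). Per1, which glucocorticoids and cAMP also induce, read 32.9, 36.4 and 22.2 CPM in WT and 59.1, 44.6 and 32.7 CPM in KO, with an edgeR log2 fold change of 0.58 (unadjusted p = 0.0440, adjusted p = 0.690). Arntl, the activator of the clock loop, read 2.83, 3.95 and 2.68 CPM in WT and 6.90, 6.95 and 1.13 CPM in KO, with KO replicates 1 and 2 above WT and KO replicate 4 below. Without KO replicate 4, DESeq2 called these 3 of the 15 higher and 0 lower, against 3.08% of all genes called. Ciart was then at 0.99 (adjusted p = 0.0202), Per1 at 0.77 (adjusted p = 0.0161) and Arntl at 1.14 (adjusted p = 0.00476). The edgeR adjusted p was then 0.166 for Per1 and 0.0808 for Arntl. Of the 15, 10 were above 0 and 5 below, with a median of 0.06. Without KO replicate 4, 5 were above and 10 below, from -1.28 to 1.14, with a median of -0.08. At an unadjusted p under 0.05 by edgeR, 3 were then higher and 2 lower, against 5.64% and 6.5% of all genes. The part of collection time was not tested.

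Markers of other liver cells were set beside the members' differences. Kupffer cell and macrophage markers (7 genes) summed to 249, 276 and 517 CPM in WT and 449, 243 and 263 CPM in KO, high in WT replicate 3 and KO replicate 1. Markers of sinusoidal endothelium (6 genes) summed to 173, 211 and 272 CPM in WT and 182, 171 and 207 CPM in KO. Those of stellate cells and fibroblasts (6 genes) summed to 327, 235 and 258 CPM in WT and 377, 347 and 384 CPM in KO, and those of cholangiocytes (5 genes) to 65.5, 32.7 and 26.9 CPM in WT and 31.8, 71.4 and 77.0 CPM in KO. Neutrophil markers (6 genes, 2 of them tested) summed to 2.89, 2.09 and 3.66 CPM in WT and 14.6, 4.79 and 5.21 CPM in KO, where S100a9, at 1.04, 1.12 and 1.92 CPM in WT and 7.28, 2.66 and 2.92 CPM in KO, was called higher by DESeq2 (adjusted p = 0.0132; edgeR adjusted p = 0.414). The 7 hepatocyte markers measured had a median log2 fold change of 0.11, from -0.16 to 0.91, with 6 above 0 and 1 below. Their summed levels, given above, overlapped between the groups. Of these 7, the urea cycle genes Cps1 and Ass1 were called higher by DESeq2, against 1.22% of all genes called. Cps1 read 2098, 2258 and 2311 CPM in WT and 5037, 3166 and 3902 CPM in KO (DESeq2 adjusted p = 1.9e-04; edgeR adjusted p = 0.198, and 0.0631 without KO replicate 4). Ass1 read 1127, 1028 and 863 CPM in WT and 2380, 1794 and 1480 CPM in KO (DESeq2 adjusted p = 2.9e-04; edgeR adjusted p = 0.207, and 0.0262 without KO replicate 4). Both had no overlap between the groups, as Slc37a4 and Foxo1 did, and the part of a shift among liver cells or zones in the members' differences was not tested.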

How the data were processed

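The authors deposited a single table with raw counts of reads per gene for 3 WT and 3 KO livers. Per their methods and processing notes, RNA was selected with polyA beads, made into directional libraries, read as single ends on a NextSeq, converted with bcl2fastq, trimmed with Trimmomatic, aligned with STAR 2.5.0c to GRCm38.p5 and counted with featureCounts, and DESeq2 was their test. Whether counting used the strand is stated nowhere in these sources, so genes overlapping on opposite strands may share reads. Symbols, positions and exon lengths came from GENCODE M21 (49412 of 49671 IDs matched, 259 not). 0 rows named no gene. Levels per kilobase divide CPM by the union of a gene's exons.

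KO and WT counts were tested in R 4.3.3 with edgeR 4.0.16 (filterByExpr, TMM, glmQLFit, glmQLFTest, Benjamini-Hochberg over the 13773 genes tested, a call at an adjusted p under 0.05), after tests on simulated data. Intervals are 95%. DESeq2 1.42.0 and limma 3.58.1 (voom), other scalings and filters, robust dispersions, each library left out and the replicate number as a block were alternatives; 2 more without KO replicate 4 were added after the data were seen. Counts per library bound precision: totals were 27107209 to 32664149. The members, lists and tests were chosen with earlier results of these data known. All 36 members are accounted for. Values in each library are given for members at an unadjusted p under 0.05 or called by DESeq2 or without KO replicate 4, for the highest per kilobase of each branch, and for G6pc, Pck1, Pklr, Gys2, Pdk4 and Gckr, with Ppargc1a, Mpc1, Mpc2 and, outside the members, Mlxipl, Tat, Lpin1, Scd1 and Arntl added after their values were seen; Aldoc and Galt are named without them. Genes of other lists are named if called by edgeR or DESeq2 on all libraries, with Igfbp1, Fasn and clock genes at an unadjusted p under 0.05. Promoters are RefSeq windows of 250 bases. Some genes that these rules would name are not reported here, and the lists were computed without them.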

Additional observations from a re-analysis of the deposited data

How the results depend on the processing

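Calls depended on the tool and on KO replicate 4. Over all genes, edgeR called 0 (988 at an unadjusted p under 0.05), DESeq2 164, edgeR without a filter on low counts 136, robust dispersions 9 and limma-voom 5. Of the members, DESeq2 called 2 (Slc37a4 and Foxo1) and the fit without a filter called 1 (Slc37a4), with 10 members at an unadjusted p under 0.05 there (6.03% of the 23581 genes it tested) against 5 (7.17% of 13773). Without KO replicate 4, edgeR called 114 genes and 2 members (Slc37a4 and Foxo1), edgeR on library totals 99 and 2, and DESeq2 406 and 3. In those 3 fits, 8, 8 and 9 members were at an unadjusted p under 0.05 (12.1%, 12.5% and 6.93% of all genes), and 13, 12 and 13 had groups that did not overlap, against 7. Over the fits that leave out 1 library each, 0 to 114 genes and 0 to 2 members were called, 4 to 8 members were at an unadjusted p under 0.05, and 7 to 13 had groups that did not overlap. The median log2 fold change over the same fits ran from 0.022 to 0.22 for glycolysis and fructose entry, from -0.12 to 0.057 for pyruvate entry and oxidation, from 0.21 to 0.38 for glucose entry and release, from 0.022 to 0.31 for glycogen, from 0.13 to 0.27 for gluconeogenesis, from 0.34 to 0.69 for the PFKFB enzymes and from 0.40 to 0.61 for the regulators. For glycogen it was -0.0051 on library totals without KO replicate 4. Gys2 and Pklr turned lower without KO replicate 4: -0.32 and -0.23 by edgeR, -0.34 and -0.26 on library totals, and -0.32 and -0.23 by DESeq2. Over all fits that leave out 1 library, Gys2 ran from -0.32 to 0.39 and Pklr from -0.23 to 0.36. Leaving out any other library ended no call, as edgeR made 0.

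The replicate numbers 1 and 2 occur in both groups, but nothing says that they pair the mice, and same-numbered libraries deviated together with correlations of -0.124 and 0.026. With the replicate number as a block, which leaves replicates 3 and 4 with 1 library each, edgeR called 468 genes and 2 members (Slc37a4 and Foxo1), 9 members were at an unadjusted p under 0.05 (16.9% of all genes), and Gys2 and Pklr stood at -0.33 and -0.31. No count of groups that do not overlap was made for it. The causes of these shifts were not tested. Scaling by DESeq2's size factors or by library totals, and a minimum of 10 counts in every library, called 0 genes, as the main test did. With 3 libraries a group, intervals of genes that varied between libraries, such as Ppp1r3g, Pdk4 and Ppp1r3b, are wide, and differences inside them were not detectable.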
